A study of Humulus lupulus with 6 samples.

Results

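Intronless loci are places in the hop genome where each tissue's assembly held a single unspliced gene model. They were studied in the hop (Humulus lupulus) cultivar Cascade, in leaf, apical meristem and stem. Gene models were joined into a locus where they shared 1 or more exonic bases and the strand. Members were chosen by their measured exon structure, length and CPM, which are therefore given as a description. A locus was kept if it had exactly 1 model in each table and if that model formed 1 exon after overlapping exon entries were merged. Its model also had to be at least 300 bases long in every table, and the locus had to reach 10 CPM in at least 1 tissue. CPM is the count per 1000000 fragments counted in that tissue. The rule kept 1469 of 67811 loci, or 2.17%. Of the 22857 loci with exactly 1 model in each table, 6667 had 1 merged exon throughout, and 3875 of these met the length limit. The comparison set was 10052 multi-exon loci, which met the same limits but had at least 2 merged exons in each table.

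The study sampled young leaves, apical meristems and actively growing stems of glasshouse plants. All groups share the cultivar, and the only treatments named are sprays against insects and fungi. The labels list 6 samples, 2 per tissue, while the protocols describe 1 library per tissue, and the tables hold 1 count column per tissue. No spread between samples could therefore be computed, no test was run, and differences below are differences between 3 columns of counts. The leaf column totals 162799212 fragments, the meristem column 135877224 and the stem column 125454712.

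In plants most protein-coding genes carry introns, which are removed from the transcript by splicing. Genes without introns are found throughout plant genomes and include most replication-dependent histone genes, which package newly made DNA, many SAUR genes, which respond to the hormone auxin, and many AP2/ERF transcription factors. Retrocopies, which are made from spliced messages, also lack introns, as do many non-coding transcripts. The tables pair no gene number with a gene name, so none of these families was looked up, and the loci are identified by contig and position. The tissue labels could not be checked against marker genes for the same reason. Contig names and positions are those of the submitters' Cascade assembly, for which the sources used here give no build name.

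The label "intronless" held for most but not all members. A single exon entry in every table was found for 1365 loci. The other 104 loci (7.08%) had more than 1 exon entry in some table that merged into 1 stretch. Expression "in all tissues" means here a model in each table, which the rule itself required. Models were assembled per tissue, so a count above 0 was close to given, and 0 members had a count of 0. Expression in all tissues did not hold at the level that chose the members. Only 525 members (35.7%) reached 10 CPM in every tissue, against 6429 multi-exon loci (64.0%). A total of 555 members reached it in 1 tissue alone, 134 of them in leaf, 153 in meristem and 268 in stem. Below 1 CPM in some tissue lay 138 members, or 9.39%, against 2.64% of the multi-exon loci. CPM chose both sets, and the multi-exon loci stood at higher levels (given below), so these contrasts are description only.

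The limits of the rule cut through a continuous range. The member nearest to the CPM limit, on the minus strand of contig 001390F from 264558 to 265743, reached 10.01 CPM, and the closest locus outside it, on contig 001087F, reached 9.99. The member nearest to the length limit, on contig 004285F, had a shortest model of 302 bases, and a locus on contig 000105F was left out with 299 bases.

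The members were short and evenly spread over the strands. Model lengths ran from 302 to 3999 bases in leaf, with a median of 884 and quartiles of 593 and 1425. The medians were 896 bases in meristem and 888 in stem. Multi-exon loci had median exonic lengths of 1377 bases in leaf, 1477 in meristem and 1422 in stem. On the plus strand lay 748 members, and 721 lay on the minus strand. They were scattered over 1109 contigs, of which 245 held more than 1 member.

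The ends of a member's models varied between tissues. They lay within 10 bases of each other at 42.5% to 47.7% of the members for the 5′ end and at 39.5% to 43.0% for the 3′ end, depending on the pair of tissues. The 5′ ends of the leaf and meristem models were a median of 12 bases apart and the 3′ ends 20 bases. For leaf and stem the medians were 17 and 19 bases, and for meristem and stem 18 and 18. The multi-exon loci had medians of 16 to 18 bases at the 5′ end and 21 or 22 at the 3′ end. The longest and shortest model differed by at most 10% at 707 members (48.1%) and at 55.9% of the multi-exon loci. At 111 members (7.56%) the shortest model was at most 50% as long as the longest, against 2.77% of the multi-exon loci. A model that is short in the tissue with few reads also collects fewer fragments, so the fold per base of model is given wherever it changes a fold printed below by over 1.5 times.

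The members took 9.55% of the counted fragments in leaf (15540084), 5.93% of those in meristem (8055341) and 5.32% of those in stem (6676000). The exact binomial 95% intervals were 9.541% to 9.550%, 5.924% to 5.932% and 5.318% to 5.325%. Counting error is all that these cover, because reads without molecular identifiers can be PCR copies of 1 molecule. The multi-exon loci took 70.0% in leaf, 65.4% in meristem and 66.8% in stem, so their share was largest in leaf too. Leaf gave the largest share to the members, and a few loci made up much of it. Its 2 most abundant members held 32.0% of all leaf fragments in this class, and without them the leaf share was 6.49%. In meristem the 2 most abundant members held 6.95% of the class and in stem 5.63%, and without them the shares were 5.52% and 5.02%.

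Levels were scaled further with TMM factors, which correct for differences in composition between tissues with values of 0.759 (leaf), 1.17 (meristem) and 1.13 (stem). They raise leaf relative to the other tissues. On this normalised scale the median member stood at 18.7 normalised CPM (leaf), 12.3 (meristem) and 13.2 (stem). The quartiles were 8.16 and 42.0 in leaf, 6.18 and 27.7 in meristem, and 6.43 and 30.1 in stem. The median multi-exon locus stood higher, at 29.8 (leaf), 24.9 (meristem) and 24.8 (stem). Per kilobase of model, the median level of the members was 19.7 in leaf, 13.3 for meristem and 14.9 for stem, in normalised CPM. The multi-exon loci stood at 20.8, 16.8 and 17.5 per kilobase, so the medians of both classes were closest in leaf.

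The most abundant member of leaf lay on the plus strand of contig 001375F from 562017 to 563108. Leaf had 3129341 fragments of it, meristem 147990 and stem 36512. That is 1.92% of all leaf fragments (95% interval 1.920% to 1.924%), compared with 0.109% of those in meristem and 0.0291% of those in stem. After scaling it was 27.2-fold higher in leaf than in meristem and 98.0-fold higher than in stem. A second member of the same contig, on the minus strand from 494805 to 495886, came next in leaf. Leaf had 1845891 fragments of it, meristem 176164 and stem 151447, and it was 13.5-fold and 13.9-fold higher in leaf. Both loci were far above every other member in leaf, but the second was nearly level between meristem and stem while the first was 3.61-fold higher in meristem than in stem. The second locus had up to 3 exon entries, which merged into 1 stretch. Next in leaf was a member on the minus strand of contig 001045F from 558941 to 559862, for which leaf had 545602 fragments, meristem 85563 and stem 73123. It was 8.19-fold and 8.54-fold higher in leaf.

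Of the 3 most abundant members of meristem, 2 were far lower elsewhere and lowest in stem. First was a member on the minus strand of contig 005789F from 108863 to 109566, which had 360267 fragments in meristem, 6839 in leaf and 1774 in stem. It took 0.265% of meristem fragments and was 41.0-fold above leaf and 181-fold above stem. A member on the plus strand of contig 011168F from 168 to 528 had 199645 fragments in meristem, 13040 in leaf and 754 in stem. It was 11.9-fold above leaf and 236-fold above stem, and its models were of 338 bases in meristem, 348 in leaf and 320 in stem. Next most abundant in meristem was the leaf-high locus on the minus strand of contig 001375F.

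In stem, first place went to a member on the minus strand of contig 010291F from 33539 to 34329. It had 224571 fragments in stem, 2083 in meristem and 1248 in leaf, which is 121-fold above meristem and 157-fold above leaf. Its stem model was 791 bases long, against 459 in meristem and 450 in leaf, and per base of model the folds were 70.3 and 89.5. The leaf-high locus on the minus strand of contig 001375F was second in stem as well. It was followed by a member on the minus strand of contig 011863F from 1220 to 2263, with 140356 fragments in stem, 87902 in meristem and 50100 in leaf. This locus differed much less between tissues, at 1.79-fold above meristem and 2.45-fold above leaf.

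At least 1000 CPM was reached by 15 members in some tissue and at least 100 CPM by 226. Among the 15, 9 reached the limit in leaf, 6 in meristem and 3 in stem. At the other end of specificity, 31 members stood at 100 CPM or more in every tissue. Of these, 14 stayed within 2-fold over the tissues and 8 differed by at least 4-fold. The most even was a member on the plus strand of contig 000871F from 96605 to 98943, with 158 normalised CPM in stem, 151 in leaf and 132 in meristem, a ratio of highest to lowest of 1.20. The next, on the plus strand of contig 008175F from 133810 to 134485, had 208 normalised CPM (leaf), 150 (meristem) and 142 (stem), a ratio of 1.46.

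**Figure D1:**
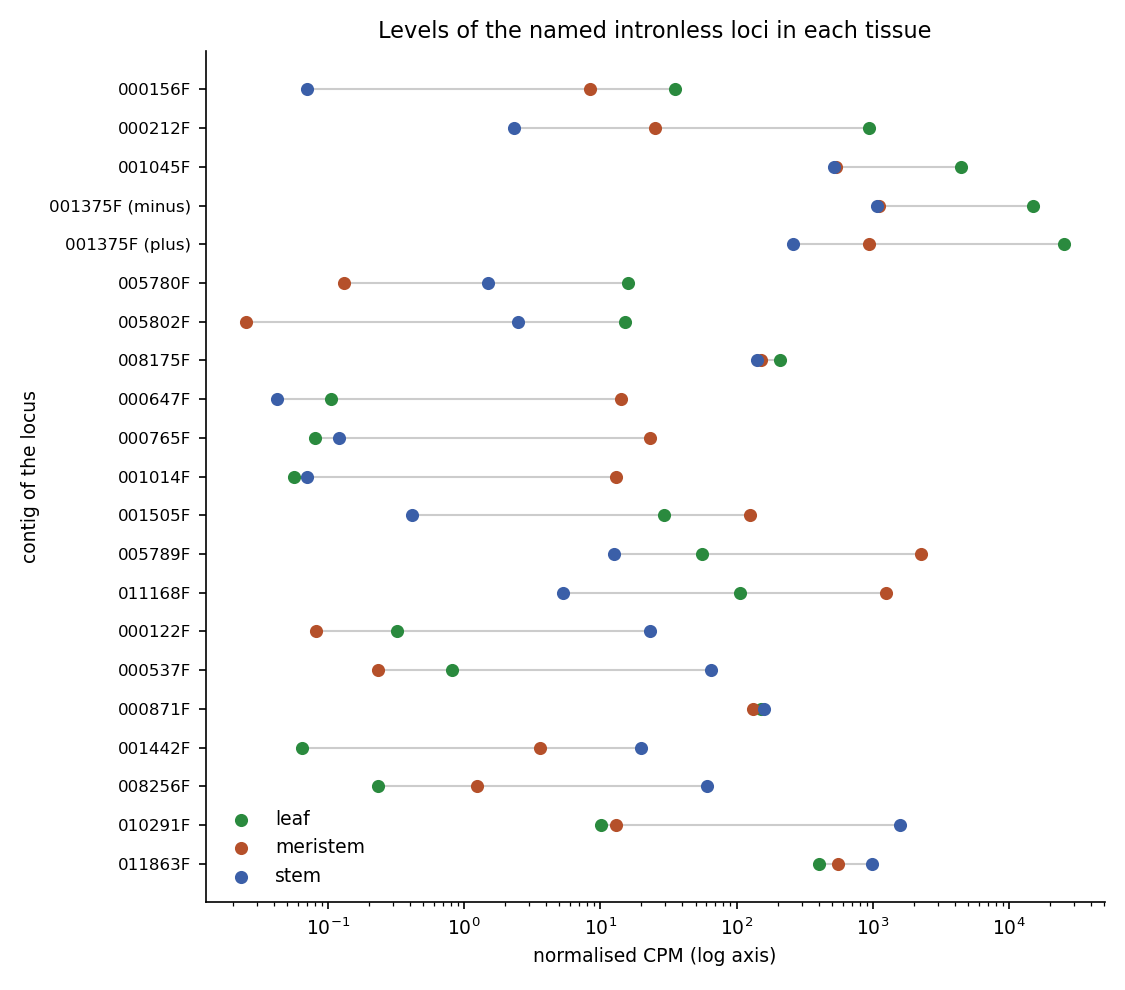
Normalised CPM (log axis) of 21 named intronless loci, 1 row per locus, with 1 point per tissue (leaf green, meristem orange, stem blue) and a grey line from the lowest to the highest tissue. The rows include the most abundant loci, those with the largest folds and the 2 most even ones, so wide gaps are a result of how they were chosen; each point is a single count column with no replicate error.

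The members were compared in pairs of tissues by a rule of size. Loci entered a comparison at 10 normalised CPM in the higher tissue and were called at 4-fold or more. Between leaf and meristem, 1186 members were compared and 237 were called higher in leaf, or 19.98%. Over all loci the same rule called 10.8%, and over the multi-exon loci 9.77%. Higher in meristem were 62 members (5.23%), against 6.36% of all loci and 2.29% of the multi-exon loci. Members called in favour of leaf held 6.35% of its fragments and 0.751% of those of meristem. Members called in favour of meristem held 1.003% of its fragments and 0.0567% of those of leaf. Over all loci, the loci called in favour of leaf held 38.5% of its fragments and those in favour of meristem 7.63%. The share of members called higher in leaf was thus well above that over all loci, while the share called higher in meristem was near it. Both were above the shares of the multi-exon loci. In bulk tissue, fewer cells of a type and less RNA per cell cannot be told apart.

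Between leaf and stem, 1306 members were compared. Higher in leaf were 356 (27.3%), against 18.0% of all loci and 15.5% of the multi-exon loci. Higher in stem were 164 (12.6%), against 10.4% and 6.09%. Differences above 100-fold favoured leaf at 27 members and stem at 10. Over all 16528 loci compared they favoured leaf at 162 and stem at 86, so the lean to leaf was general. Members called in favour of leaf held 6.85% of its fragments and 0.595% of those of stem. Members called in favour of stem held 1.09% of its fragments and 0.0733% of those of leaf. Over all loci, the loci called in favour of leaf held 46.2% of its fragments and those in favour of stem 15.8%.

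Between meristem and stem, 1225 members were compared, and here the direction of the members differed from that of the whole table. Higher in stem were 230 members (18.8%), against 9.63% of all loci and 6.92% of the multi-exon loci. Higher in meristem were 187 (15.3%), against 12.9% and 8.32%. Meristem held 44.8% of the calls among members, but 57.3% over all loci and 54.6% among multi-exon loci. The median log2 difference of meristem over stem was -0.31 among members and -0.05 over all loci compared. Without scaling factors meristem held 47.2% of the calls among members and 59.7% over all loci, so this order did not turn. With members that had a model on the other strand removed, 147 were higher in meristem and 143 in stem, so the larger count moved to meristem. The other loci were not filtered in this way.

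**Figure D2:**
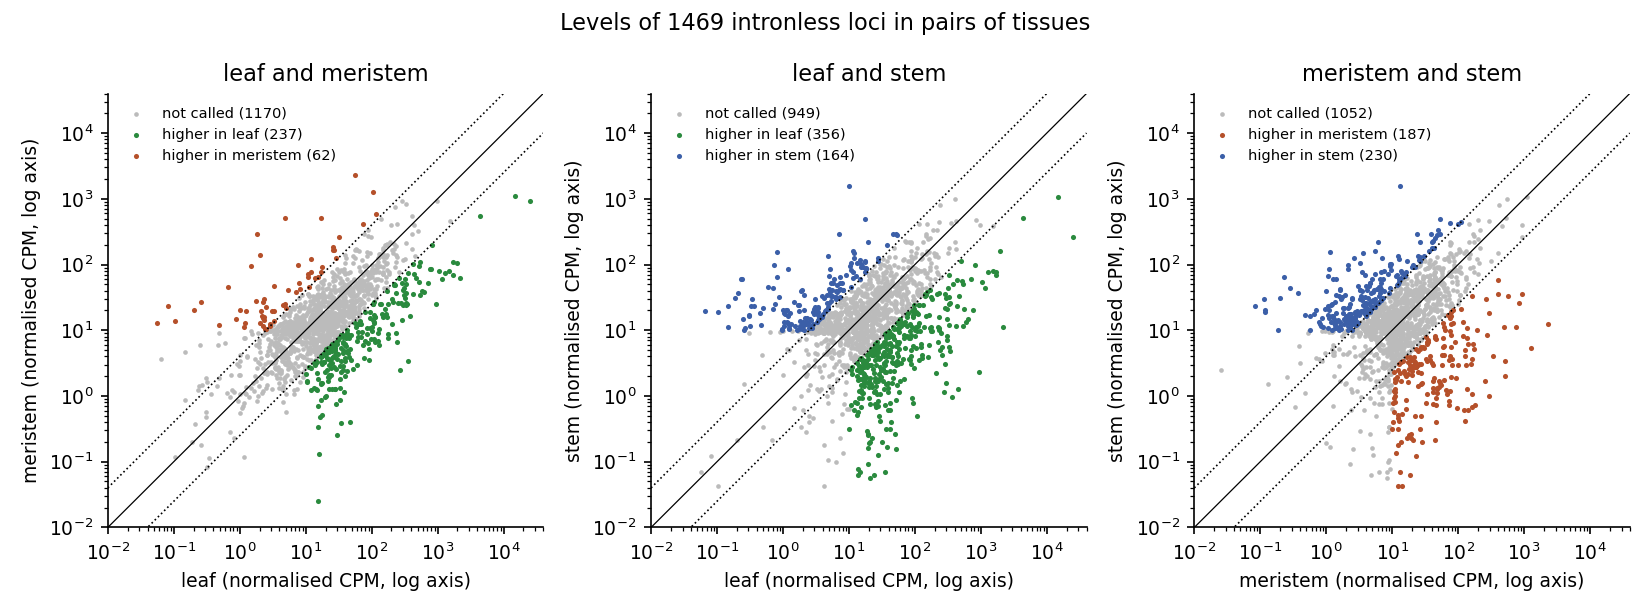
Normalised CPM of the 1469 intronless loci in pairs of tissues, both axes logarithmic, 1 point per locus, with the line of equal level (solid) and of 4-fold difference (dotted). Coloured points are called, 237 and 62 for leaf and meristem, 356 and 164 for leaf and stem, 187 and 230 for meristem and stem; grey points are not called, including loci that stay below 10 normalised CPM in both tissues.

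The direction of the comparisons with leaf depends on the scaling factors. Without them, leaf was higher at 154 members and meristem at 131, and 54.0% of the calls favoured leaf in place of 79.3%. Against stem, leaf was higher at 255 members and stem at 269, and 48.7% of the calls favoured leaf in place of 68.5%. The factors moved the median log2 difference over all loci compared from -0.65 to 0.08 in both comparisons. The multi-exon loci sent a larger part of their calls to leaf than the members did, at 81.0% against meristem and 71.8% against stem with the factors, but a smaller part without them, at 45.3% and 45.0%. The median of the members was above that of all loci on either scale. Their median log2 difference was 0.67 for leaf over meristem with the factors and -0.07 without, and for leaf over stem it was 0.48 and -0.25.

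Calls of either direction were more frequent among members than among multi-exon loci in every pair. They made up 25.2% of the members and 12.1% of the multi-exon loci for leaf versus meristem, 39.8% and 21.6% for leaf versus stem, and 34.0% and 15.2% for meristem versus stem. The gap was 13.1, 18.2 and 18.8 percentage points. With multi-exon loci weighted to the levels of the members it was 11.6, 15.2 and 15.8, and among loci with model lengths within 10% it was 11.02, 16.2 and 15.2. No test stands behind this difference, since each tissue has 1 column and loci are not replicates. The middle of the distribution differed too. The median member was 2.21-fold apart between leaf and meristem, 3.003-fold between leaf and stem and 2.61-fold between meristem and stem. The multi-exon medians were 1.596-fold, 2.03-fold and 1.81-fold.

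**Figure D3:**
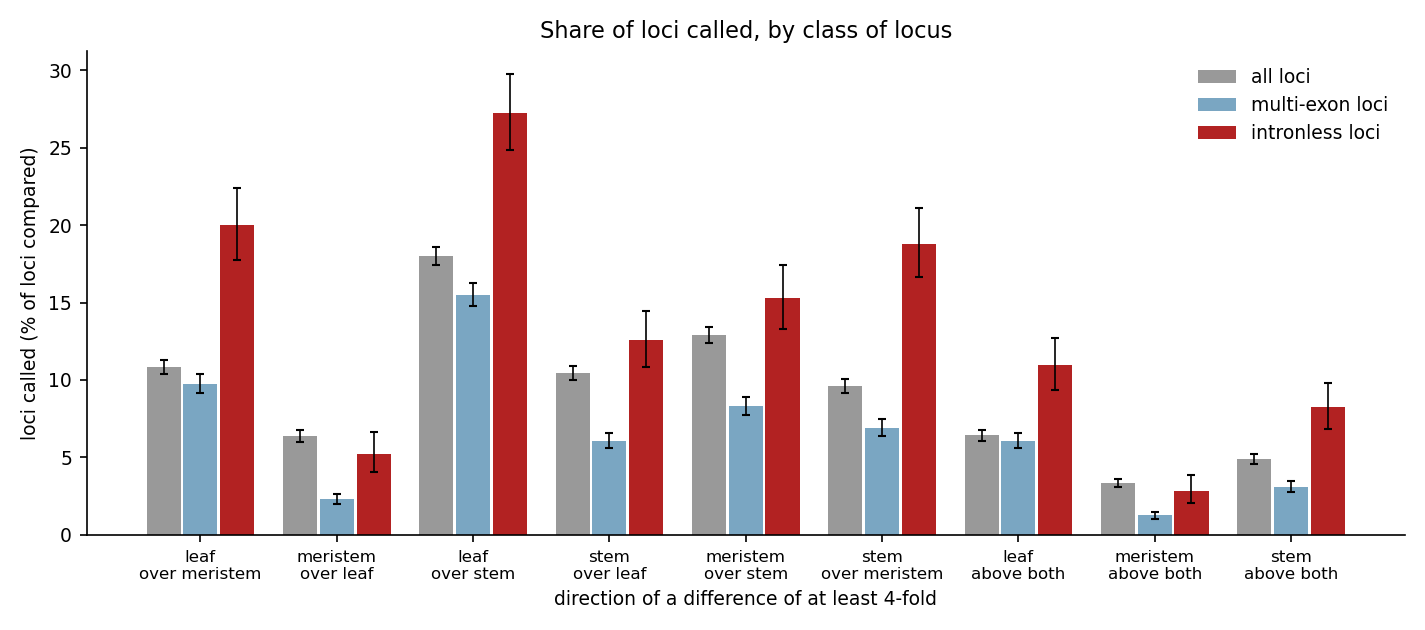
Percent of compared loci called at 4-fold or more in each direction, and of loci above both other tissues, for all loci (grey), multi-exon loci (blue) and intronless loci (red). Error bars are exact binomial 95% intervals that treat loci as independent and say nothing of variation between plants; the red bar is above the blue one in each of the 9 groups, and at or below the grey one where meristem is the higher tissue against leaf or against both.

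Of 1397 members compared over all tissues, 153 were leaf-enriched (10.95%), that is at least 4-fold above both other tissues. Stem-enriched were 115 (8.23%) and meristem-enriched 40 (2.86%). Over all loci the shares were 6.43% for leaf, 4.88% for stem and 3.33% for meristem. Over the multi-exon loci they were 6.09%, 3.11% and 1.26%. Without scaling factors 99 members were leaf-enriched, 155 stem-enriched and 73 meristem-enriched, so that leaf and stem changed places. The leaf-enriched members took 5.91% of leaf fragments, and 2.86% without the 2 most abundant. That is 44.0% of what the class held in leaf without these 2. The meristem-enriched members took 0.945% of meristem fragments and the stem-enriched 0.868% of stem fragments. Over all loci, the enriched loci took 33.8% of leaf, 5.99% of meristem and 10.9% of stem fragments. Over the multi-exon loci it was 23.4%, 2.35% and 6.82%, so leaf had the largest share there too. The median level of the enriched members in their own tissue in normalised CPM was 68.0 for leaf, 68.5 for meristem and 29.6 for stem. In CPM before the factors, the medians of these loci were 51.6 in leaf, 80.1 in meristem and 33.4 in stem.

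Loss in a single tissue was also tallied. At least 4-fold below both other tissues were 177 members in stem (12.7%), 58 in meristem (4.15%) and 29 in leaf (2.08%). Over all loci the shares were 9.47%, 2.05% and 2.45%, and over the multi-exon loci 6.09%, 1.39% and 0.915%. Without scaling factors, 165 members were low in stem, 39 in meristem and 62 in leaf, so the order of meristem and leaf turned. Members low in stem alone or in meristem alone thus had a higher share than over the whole table, and members low in leaf alone were near it. In each tissue the share of the members was above that of the multi-exon loci. Within 2-fold over all tissues were 263 of the 1469 members (17.9%), against 33.4% of the multi-exon loci.

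Tissue differences were more common at members with a short model in some tissue. A tissue with few reads can give a short model, so lengths of the shortest model are not independent of the calls. Of the members whose shortest model had 300 to 499 bases, 61.6% were called in some pair of tissues. The share was 58.5% at 500 to 999 bases, 51.0% at 1000 to 1499, 39.8% at 1500 to 1999 and 34.8% at 2000 bases or more. Multi-exon loci fell along the same bins, at 50.8%, 39.5%, 30.3%, 22.1% and 19.4%, and were below the members in each. Stem-enriched members made up 14.8% of the shortest bin and 2.25% of the longest, and meristem-enriched members 5.48% of the shortest and 0 of the 89 compared in the longest. All 40 meristem-enriched members had a shortest model under 1500 bases. Leaf-enriched members made up 11.3%, 13.6%, 9.51%, 4.35% and 8.99% from the shortest bin to the longest, where the last is 8 of 89 loci. The median shortest model was 735 bases for leaf-enriched, 546.5 for meristem-enriched and 584 for stem-enriched members.

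Called members were also more common at high levels. The level used is that of the highest tissue, which also enters the fold, so bin and call are not independent. The share called in some pair was 42.6% where the highest tissue stood at 10 to 20 normalised CPM, 54.5% at 20 to 50, 57.1% at 50 to 100 and 72.8% at 100 or more. For multi-exon loci it was 22.9%, 24.9%, 28.1% and 42.6%. The leaf-enriched share of the members rose from 4.57% in the lowest of these bins to 28.5% in the highest. Stem-enriched members did not follow this, with 8.26% in the lowest bin and 6.28% in the highest.

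**Figure D4:**
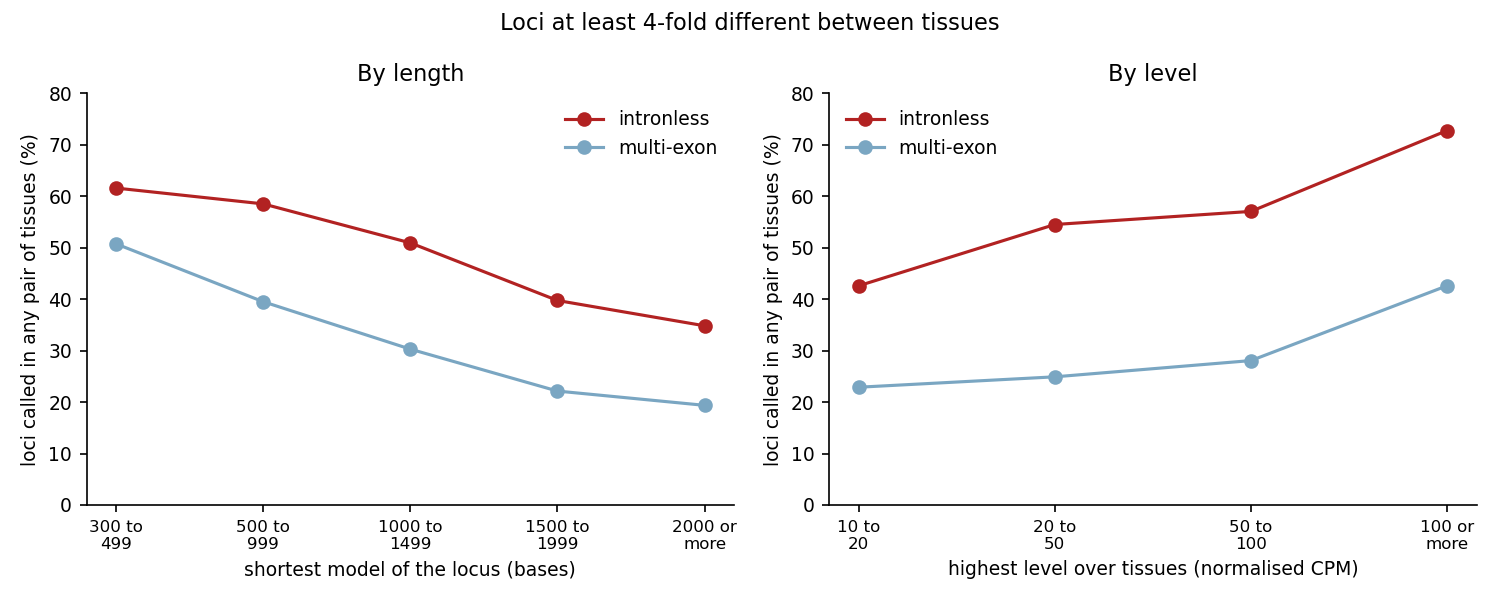
Percent of loci called at 4-fold or more in any pair of tissues, by the length of the shortest model in bases (left) and by the highest level over tissues in normalised CPM (right), for intronless (red) and multi-exon loci (blue). Both classes fall with length and rise with level, and the intronless loci lie above the multi-exon loci in each bin, from 61.6% against 50.8% in the shortest to 34.8% against 19.4% in the longest. Neither axis is independent of the calls. A tissue with few reads can give a short model, and the highest level enters the fold.

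The largest folds among the members mostly rested on small counts in the lower tissue. For leaf over meristem, the first was on the minus strand of contig 005802F, positions 239944 to 240320, with 1877 leaf, 351 stem and 4 meristem fragments. The fold was 603 (counting interval 235 to 2215). It is overlapped by an other-strand model with 24 fragments in meristem and 140 in stem. The next lay on the plus strand of contig 005780F, positions 101682 to 102089, with 1989 leaf, 212 stem and 21 meristem fragments, a fold of 122 (79.4 to 197). Both were lowest in meristem, with stem between meristem and leaf.

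For meristem over leaf, a member on the plus strand of contig 000765F, positions 384360 to 384849, had 3656 fragments in meristem, 10 in leaf and 17 in stem. The fold was 285 (155 to 594). Another on the plus strand of contig 001014F, positions 85302 to 85936, had 2053, 7 and 10 fragments in the same order, a fold of 228 (111 to 568). Both loci were low in leaf and stem alike.

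For leaf over stem, a member on the plus strand of contig 000156F, positions 1118836 to 1119575, had 4337 leaf, 1326 meristem and 10 stem fragments. The fold was 496 (270 to 1035), and a multi-exon model on the same strand lies 476 bases away. A member on the plus strand of contig 000212F, positions 455386 to 456059, had 116566 leaf, 3981 meristem and 330 stem fragments, a fold of 404 (363 to 452). With 330 fragments in the lower tissue, this fold has the narrowest counting interval of those named here. For stem over leaf, a member on the plus strand of contig 001442F, positions 81670 to 82405, had 2819 fragments in stem, 575 in meristem and 8 in leaf. The fold was 308 (156 to 714), and 170 per base of model. A member on the plus strand of contig 008256F, positions 82721 to 83329, had 8617 fragments in stem, 198 in meristem and 29 in leaf, a fold of 260 (181 to 388). It starts or ends 67 bases from a multi-exon model on its strand.

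For meristem over stem, a member on the plus strand of contig 000647F, positions 387732 to 388087, had 2233 fragments in meristem, 13 in leaf and 6 in stem. The fold was 331 (152 to 904). A member on the plus strand of contig 001505F, positions 515208 to 517084, had 20003 fragments in meristem, 3624 in leaf and 59 in stem, a fold of 302 (234 to 397). The meristem model was 1877 bases long and the stem model 681, and per base of model the fold was 110. For stem over meristem, a member on the minus strand of contig 000122F, positions 146335 to 146982, had 3262 fragments in stem, 40 in leaf and 13 in meristem, a fold of 282 (165 to 530) and of 187 per base of model. A member on the plus strand of contig 000537F, positions 198035 to 198785, had 9151, 100 and 37 fragments in the same order, a fold of 278 (201.4 to 394.8). Both stem-high loci were low in leaf as well.

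Dividing by model length changed few calls. Of the 1236 calls among members in the 3 pairs, 1133 (91.7%) were still at least 4-fold and of the same sign per base of model, and 1 changed sign. Among the calls in favour of leaf over meristem, 13 had a meristem model at most 50% as long as the leaf model.

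Models on the other strand were frequent at members. Exonic overlap with such a model was found at 398 members (27.1%) and at 10.02% of the multi-exon loci. At 363 of the 398, each overlapping locus was itself single-exon in every table that held it, and at 35 a multi-exon model was among them. The overlap was more common at long members, at 14.2% of those with 300 to 499 bases and 41.6% of those with 2000 bases or more. It was found at 30.1% of the leaf-enriched, 31.3% of the stem-enriched and 12.5% of the meristem-enriched members. Among multi-exon loci the shares were 18.0%, 16.0% and 4.84% in the same order, so meristem-enriched loci had the lowest share in both classes. An overlapping model was present in leaf at 189 members, in meristem at 264 and in stem at 287. Where present, it had a median of 1.90 fragments per 100 on the member's own strand in leaf, 2.39 in meristem and 2.15 in stem. In leaf it exceeded the member's own count at 10 members, and in meristem and stem at 16 each. The counts of the strands were thus far from equal at most of these loci. The sources used here do not say whether the library kit marks the strand, and the part of overlapping models in the tissue differences was not tested.

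Position relative to spliced genes was examined next. Only 7 members (0.477%) lay wholly inside an intron of another locus, against 0.776% of the multi-exon loci. Within 500 bases of a multi-exon locus on the same strand lay 195 members (13.3%), against 10.7% of the multi-exon loci. In 121 cases the spliced neighbour was upstream, in 71 downstream, and in 3 the spans overlapped. Of the 182 close neighbours with a model in every table, 140 (76.9%) had their highest level in the same tissue as the member. Among 723 members whose nearest such neighbour was more than 5000 bases away, 258 (35.7%) shared it. For multi-exon loci the shares were 71.5% and 33.7%. Whether close members are unjoined ends of the neighbour's transcript was not tested. Without the 195 members, 228 in place of 237 were higher in leaf than in meristem, and 147 in place of 153 were leaf-enriched. Calls for the other tissues fell by more. Higher in meristem than in leaf were 48 in place of 62, and higher in stem than in leaf 136 in place of 164. Meristem-enriched were 31 in place of 40.

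Members also occurred next to each other. Adjacent on the same strand, with no other locus between them, were 67 pairs, and 38 of these were at most 5000 bases apart, with a median gap of 121 bases. In 31 of the 38 pairs both loci were highest in the same tissue, which was stem in 15, leaf in 11 and meristem in 5. Adjacent multi-exon pairs were not tallied. With a multi-exon neighbour within 500 bases on the same strand, 76.9% of members and 71.5% of multi-exon loci shared its highest tissue. The closest pair of members, 50 bases apart on the minus strand of contig 003654F, ran from 187310 to 188013 and from 188064 to 189376. The first had 3080 fragments in meristem, 713 in stem and 152 in leaf, and the second 8409, 4292 and 988. A pair 52 bases apart on contig 001263F was highest in stem at both loci, with 1864 and 3019 fragments there. A pair 53 bases apart on contig 003418F was highest in stem too, with 1558 and 12851 fragments. On the normalised scale the first and the second of these pairs had the same order of tissues at both loci, while leaf and meristem changed places in the last. Whether such pairs are pieces of 1 transcript was not tested.

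The contigs with most members held 7 each, and their members did not share a tissue. On contig 000023F they were spread from 469824 to 2341799, 3 highest in leaf, 2 in meristem and 2 in stem. A pair of them lay close to each other on opposite strands, from 2306600 to 2307018 and from 2310017 to 2310578. The first had 577 normalised CPM in meristem, 118 in leaf and 33.1 in stem, and the second 263, 98.3 and 29.7. Both were highest in meristem and lowest in stem. On contig 000198F, 4 members were highest in leaf, 1 in meristem and 2 in stem on the normalised scale. Leaf led by little at the members from 171865 (18.6 against 17.3 in stem), 481242 (36.0 against 34.6 in meristem) and 1151777 (46.7 against 46.4 in stem). In CPM before the factors, leaf was not the highest tissue at these loci. The members of this contig ranged in leaf from 5.27 to 166 normalised CPM, with a median of 18.6. The member at 713087 to 713654 on the minus strand reached the top of that range and stood at 17.6 in meristem and 5.98 in stem.

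The longest members by their shortest model lay on contigs 002840F and 007359F. The first, on the plus strand from 467119 to 471117, had models of 3999 bases in leaf, 3879 in meristem and 3880 in stem. Its level in normalised CPM was 20.02 in leaf, 8.26 in stem and 4.41 in meristem. The second, on the minus strand from 133460 to 137683, had models of 3837, 4108 and 3936 bases. Its levels of 162, 103 and 158 normalised CPM in leaf, meristem and stem differed by less than 2-fold.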

How the data were processed

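RNA was extracted from leaf, meristem and stem of hop, and sequenced as paired reads. The deposited values are raw fragment counts, which the authors made with featureCounts 1.6.3 on strand setting 1, per the file headers, against a gene model file of each tissue alone. HISAT2 2.1.0 (alignment) and StringTie 1.3.3b (transcript assembly) are named in the submitters' processing notes. Reads that map to several places are not counted under the default options shown, so near-identical copies, common among intronless families, are uncertain.

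Models were joined by position, and TMM factors came from edgeR 4.0.16 (R 4.3.3) on 33671 of 33811 loci with a model in every table. Other steps used Python 3.11.15, pandas 2.3.3, numpy 2.4.6, scipy 1.17.1 and matplotlib 3.10.9. The planned quasi-likelihood test needs replicates and was replaced by the rule of size (both models present, 10 normalised CPM, 4-fold). Simulated counts with preset folds checked only that the code applies this rule. They held no variation between samples beyond counting error, so they say nothing of how reliable the calls are. Intervals are exact binomial (Clopper-Pearson, 95%). A count of 0 would be raised to 3, a level of 0.0184 CPM (leaf), 0.0221 (meristem) or 0.0239 (stem).

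Named loci were the 3 most abundant per tissue, the 2 largest folds in each direction of each pair, the 2 most even, the 2 longest, those nearest to the limits, the 3 closest adjacent pairs, and those on the 2 contigs with most members. For the contigs, the loci described singly were picked after their values were seen. The members, the rule and the lists were chosen with earlier results of these data known.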

Additional observations from a re-analysis of the deposited data

How the results depend on the processing

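No paired analysis was possible because the tables carry 1 column per tissue with no replicate number. DESeq2, the removal of single replicates and the replicate block were not run for the same reason. With no replicates, a call says only that 2 columns differ by 4-fold, and depth limits only folds that rest on few fragments in the lower tissue.

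The 6 counts per direction and the 3 enriched counts stayed within 1.5 times with RLE factors, with no filter, per base of model and without members near a same-strand multi-exon locus. They did so too with a single exon entry in every table, an alternative chosen after seeing the data. The 12 largest folds kept direction and 4-fold size under the 4 alternatives run for them (RLE, no factors, no filter, per base). The values that moved follow, pair by pair (leaf, meristem; leaf, stem; meristem, stem), followed by the leaf-, meristem- and stem-enriched counts. At a minimum of 1 CPM (3362 members) they were 474, 213, 672, 414, 392, 466, 257, 70 and 201. With a length of at least 1000 (529 members) they were 78, 10, 116, 33, 43, 67, 40, 5 and 21. With model lengths within 10% (707 members) they were 113, 21, 172, 50, 79, 89, 70, 15 and 32. These 3 change the number of members by construction. So do a length of at least 500 (1132 members) and leaving out members overlapped on the other strand (1071 members). With a fold of 2, loci higher in leaf, 496, and in meristem, 175, moved for the first pair, stem, 335, for the second, 343 and 416 for the third, and 316, 116 and 259 were enriched. With a length of at least 500, 39 were higher in meristem than leaf, 105 in stem than leaf, and 23 and 69 were meristem- and stem-enriched. Without scaling factors 154 and 131 were higher in leaf and meristem, 269 in stem than leaf, 99, 73 and 155 were leaf-, meristem- and stem-enriched, and 62 in place of 29 were at least 4-fold below both other tissues in leaf (the last chosen after seeing the data). Without members overlapped on the other strand, 150 were higher in leaf than meristem and 143 in stem than meristem. The cause was not tested for the last.

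The percent of fragments in members, ordered leaf, meristem and stem, was 8.88, 4.94 and 4.50 at 500 bases or more, 2.69, 2.21 and 2.61 at 1000 or more, 9.96, 6.40 and 5.84 at 1 CPM, and 7.32, 3.66 and 2.86 at 100 CPM. It was 7.08, 4.58 and 3.48 without overlap on the other strand, 7.87, 5.34 and 4.78 with a single exon entry, and 6.49, 5.52 and 5.02 without the 2 most abundant members. Leaf had the largest share under each.

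The excess of members over multi-exon loci in percentage points called stayed above 0 under all 6 alternatives in each pair. Against every locus with a multi-exon model in all tables it was 10.6, 15.0 and 14.9 in the order of the pairs. Weighted to the members' levels it was 15.2 for leaf versus stem and 15.8 for meristem versus stem, and with model lengths within 10% it was 15.2 for the latter.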
